A study of Mus musculus with 9 samples.

Results

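The Bcl2 family of survival and death genes was followed in the ovaries of mice with and without estrogen receptor β (ERβ). The 10 members were chosen by name, as the 3 survival genes Bcl2, Bcl2l1 and Mcl1, the 2 effector genes Bax and Bak1, and the 5 genes for BH3-only proteins Bcl2l11, Bbc3, Pmaip1, Bid and Bad. Each symbol had 1 row among the 46078 genes of the count table, and all 10 were among the 16722 genes with enough fragments to be tested in edgeR. RNA-seq was made from whole frozen ovaries of 5 WT and 4 ERβKO mice, with 1 library per mouse. The mice of both genotypes were C57BL/6J. In ERβKO mice exon 3 of Esr2, the gene for ERβ, was deleted in the germline by crossing a floxed allele with a Rosa26-Cre deleter line, so every cell carried the deletion, and the WT controls were offspring without Cre. The labels call every mouse untreated, although the treatment protocol they share describes high-fat and control diets and injections of the ERβ agonist DPN, and the diet and age behind each library are not given. The ovaries were collected without staging of the estrous cycle.

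The proteins of this family decide whether the mitochondrial outer membrane stays intact. Bcl2, Bcl-xL (the product of Bcl2l1) and Mcl1 hold the effectors Bax and Bak in check, the effectors form the pores through which cytochrome c leaves the mitochondrion, and the BH3-only proteins carry stress and damage signals to both. In the ovary, apoptosis removes granulosa cells during follicle atresia, takes part in the regression of the corpus luteum and limits the reserve of oocytes. Much of this control acts on the proteins, through phosphorylation, cleavage, binding and turnover, which RNA-seq does not measure.

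The promoters of the members were searched for the response elements of ERβ and of factors known from the ovary. RefSeq promoter windows of GRCm38.p6, from 250 bases before to 50 bases after a start site, were matched by symbol for 9 of the 10 members, in 15 windows, and Pmaip1 had no entry. Both strands were searched. The palindromic estrogen response element with 3 bases between its half-sites was in none of the 15 windows and in 0.07% of all 32851 windows. Its half-site GGTCA was in 6 of the 15 windows, of 4 members (Bcl2l1, Bak1, Bcl2l11 and Bad), and in 40.5% of all windows, so the members' share was that of the background. The NR5A element CAAGGTCA, which contains the half-site and is bound by SF-1 and LRH-1, was in 1 window of Bcl2l1 and in 1.56% of all windows. The same window held the GATA element AGATAA, found in 11.2% of all windows. The FOXO element GTAAACA was in 1 window each of Bcl2l11 and Bbc3, and in 3.65% of all windows. The AP-1 element TGANTCA was in no member's window and in 7.81% of all windows. The stretches below are shown because Bcl2l1 and Bak1 are, of the members with an unadjusted p under 0.05 in the comparison of genotypes, the 2 whose windows held a match, and because Bcl2l11 and Bbc3 are textbook targets of FOXO factors. Capitals mark the matches, which read as the reverse complement where the element lies on the other strand. The stretches of Bcl2l1 and Bak1 also lie in exons of 2 longer annotated transcripts of each gene. A match is a run of letters, and no binding was measured here. The authors found most ERβ binding sites of the ovary in introns and between genes, which these windows largely leave out.
Bcl2l1, NR5A element before the start, chr2:152828575-152828604, minus strand: aactggccatgTGACCTTGgacaggctggt
Bcl2l1, half-site and GATA element before the start, chr2:152828515-152828544, minus strand: ctattgTGACCcaaAGATAAagagagcaga
Bak1, half-site that reaches the start, chr17:27028626-27028655, minus strand: ccgagaacttcctctagagggagctGGTCA
Bcl2l11, FOXO element before the start, chr2:128125788-128125847, plus strand: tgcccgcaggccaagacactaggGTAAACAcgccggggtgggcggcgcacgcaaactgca
Bbc3, FOXO element before the start, chr7:16310061-16310120, plus strand: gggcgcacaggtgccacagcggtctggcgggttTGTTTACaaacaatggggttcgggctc

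Between 12353740 and 18717510 fragments were counted on genes per library. WT replicate 2 stood apart, at 9.43 on the first principal component (35.9% of the variance), where the other WT libraries lay between -43.8 and -15.6 and the ERβKO libraries between 19.4 and 35.3. The level of Esr2 over the whole gene, which includes the exons left in the knockout allele, overlapped between the genotypes (12.4 to 23.9 FPKM in WT and 10.5 to 23.7 FPKM in ERβKO ovaries), so it checks no label. Markers of all 10 cell types searched were present in these whole ovaries. Granulosa markers summed to 551.8 to 684.8 FPKM in WT and 679 to 946 FPKM in ERβKO ovaries, and 9 of 10 had higher values in ERβKO. For luteal markers the sums were 3127 to 6802 and 2582 to 4070 FPKM, and 9 of 10 had lower values. The sums of the 6 theca markers did not overlap (465.4 to 727.9 and 836 to 1718 FPKM). Of the 5 tested, 4 had higher values and 1 lower, with a median log2 fold change of 0.121. WT replicate 2 had the lowest luteal sum (3127 FPKM) and the highest theca sum (727.9 FPKM) of the WT ovaries. Its granulosa sum of 601.7 FPKM lay inside the WT range. Adipocyte markers summed to 126.5 to 239.2 and 148.7 to 962.4 FPKM, with higher values for 6 of 6. Higher values were also found for 8 of 8 tested oocyte markers (33.2 to 108.2 and 73.9 to 143.5 FPKM), and lower values for 8 of 8 endothelial markers (99.2 to 123.4 and 94.0 to 113.8 FPKM). The sums of stromal, leukocyte, dividing cell and oviduct markers overlapped as well. Of single markers, 1 granulosa and 1 theca gene met the criteria given below with higher values and 1 luteal gene with lower values, and none of the other lists did. The part of cell composition in the differences given here was not tested, and in whole ovaries fewer cells of a type and less RNA per cell cannot be told apart.

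All 10 members were detected in every ovary, over a wide range of levels. Levels are given as FPKM, fragment numbers scaled by the authors to gene length and sequencing depth, so that genes of different length can be compared. Mcl1 was the most abundant member, at 51.4 ± 1.21 FPKM (SD, n = 5) in WT and 47.9 ± 1.80 FPKM (n = 4) in ERβKO ovaries. Its WT level lay at percentile 94.5 of the tested genes. Pmaip1 was the least abundant, at 0.44 ± 0.081 FPKM in WT ovaries, at percentile 8.3. In WT ovaries the order was Mcl1, Bax, Bak1, Bcl2l1, Bad, Bid, Bcl2l11, Bcl2, Bbc3 and Pmaip1. The neighbours Bak1 and Bcl2l1, Bcl2l1 and Bad, and Bid and Bcl2l11 overlapped in range, and the other neighbours did not. In ERβKO ovaries Bcl2l1 took the place of Bak1 after Bax, Bak1 overlapped Bad, and Bbc3 overlapped Pmaip1. The survival gene that gives the family its name, Bcl2, was thus near the low end, at 2.83 ± 0.342 FPKM in WT ovaries.

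**Figure D1:**
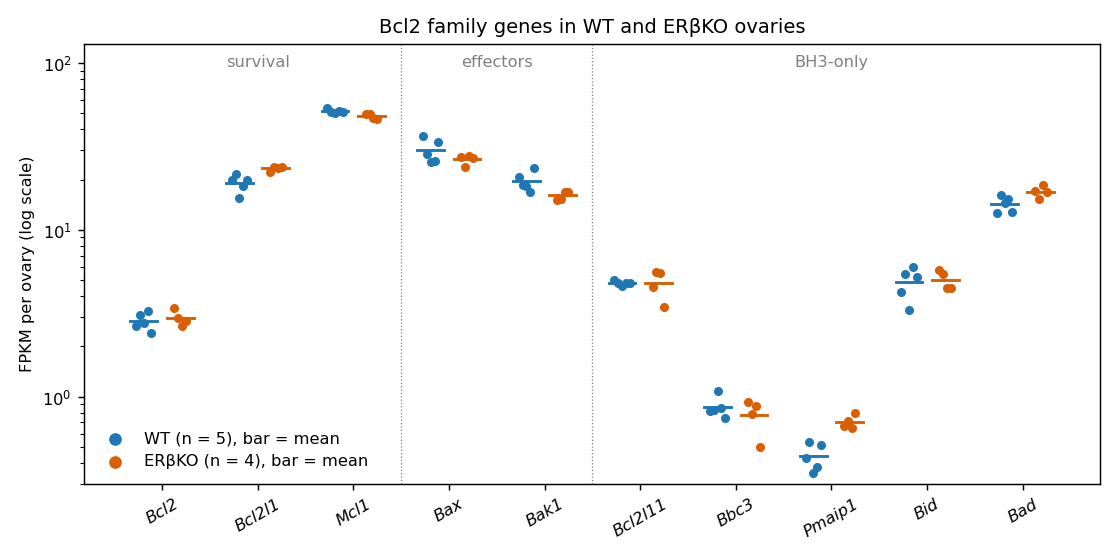
Level of each Bcl2 family gene in FPKM on a log axis, with a point per ovary (5 WT and 4 ERβKO) and a bar at the mean of the genotype. The points of the genotypes do not overlap for Bcl2l1, Mcl1 and Pmaip1, and overlap for the other 7 genes.

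The comparison of ERβKO with WT ovaries asks which of these genes depend on ERβ, and no member met the criteria for a difference. These were a p below 0.05 after Benjamini-Hochberg adjustment over all tested genes, a log2 fold change beyond 0.4 in either direction and a mean above 1 FPKM in at least 1 genotype. In edgeR's quasi-likelihood test 0 of the 10 members met them, beside 1.72% of the 16722 genes tested (0.915% higher and 0.801% lower in ERβKO). The means of Bbc3 and Pmaip1 were below 1 FPKM in both genotypes, so that 8 of the members could have met them. DESeq2 also called 0 of 10, beside 4.6% of the 17443 genes to which it gave an adjusted p. At an unadjusted p under 0.05, edgeR gave 4 of 10 members, beside 19.8% of all genes. These were Bcl2l1 and Pmaip1, with higher values in ERβKO (9.81% of all genes), and Mcl1 and Bak1, with lower values (10.0% of all genes). DESeq2 gave the same 4 members at that threshold, beside 20.0% of those 17443 genes. Without WT replicate 2 it was 5 of 10, with Bad added, beside 25.0% of all genes, and still none met the criteria.

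The FPKM of the genotypes did not overlap for 3 of 10 members, beside 7.61% of all genes. Bcl2l1 and Pmaip1 were the 2 with every ERβKO ovary above every WT ovary (4.29% of all genes), and Mcl1 the 1 with every ERβKO ovary below (3.31% of all genes). Without WT replicate 2 the count was still 3 of 10, beside 14.3% of all genes. Over all 10 members, 5 log2 fold changes were above 0 and 5 were below. Their median absolute value was 0.155, beside 0.151 over all tested genes.

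**Figure D2:**
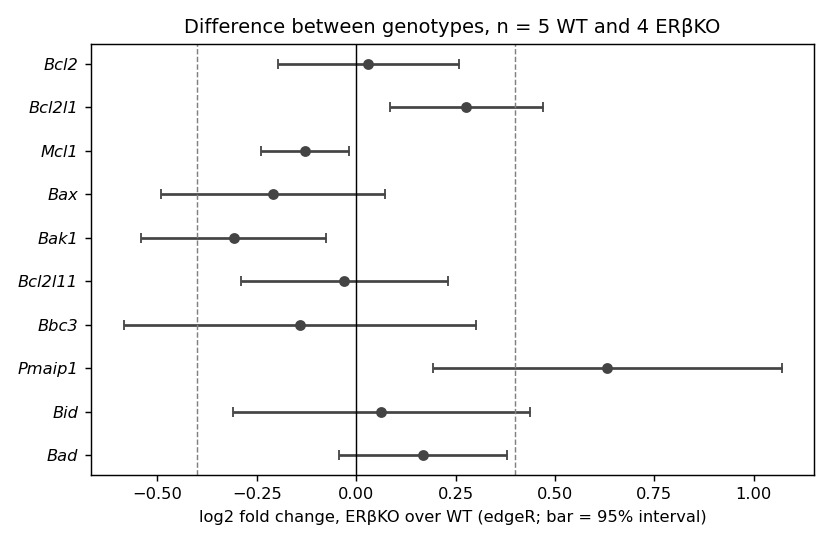
Log2 fold change of each member, ERβKO over WT, from edgeR with its 95% interval. Dashed lines mark the log2 fold change of 0.4 in either direction that the criteria ask for. The intervals of Bcl2l1, Mcl1, Bak1 and Pmaip1 leave out 0, before any adjustment for the number of genes.

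Among the survival genes, Bcl2l1 had higher values and Mcl1 lower values in ERβKO ovaries, while Bcl2 differed by less than its spread. Bcl2l1 (ENSMUSG00000007659, chr2:152780668-152831728, minus strand) encodes Bcl-xL, which binds Bax and Bak and keeps them inactive. Its levels were 19.8, 21.8, 15.6, 18.2 and 20.0 FPKM in the WT ovaries, given here and below by replicate number, and 22.2, 23.8, 23.5 and 23.9 FPKM in the ERβKO ovaries. The lowest ERβKO ovary was thus just above the highest WT ovary, WT replicate 2, and the WT ovaries were more spread (coefficient of variation 12.1% against 3.37%). The log2 fold change was 0.28 (standard error 0.087, 95% interval 0.084 to 0.469), or 1.21-fold. Its adjusted p was 0.121 by edgeR and 0.0861 by DESeq2. The unadjusted p was under 0.05 in 19 of 19 alternative fits, with an adjusted p of 0.0506 to 0.269.

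Mcl1 (ENSMUSG00000038612, chr3:95658788-95663176, plus strand) encodes a survival protein with a short life in the cell. Its levels were 53.5, 51.1, 50.4, 51.2 and 51.0 FPKM in the WT ovaries and 49.5, 49.4, 47.0 and 45.9 FPKM in the ERβKO ovaries. The genotypes did not overlap, but the gap between them was small, and WT replicate 1 lay above the other WT ovaries. The log2 fold change was -0.13 (standard error 0.050, 95% interval -0.24 to -0.017), which is within the 0.4 of the criteria over its whole interval. Its adjusted p was 0.196 by edgeR and 0.0565 by DESeq2, and the unadjusted p was under 0.05 in 12 of 19 alternative fits.

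Bcl2 (ENSMUSG00000057329, chr1:106538178-106714274, minus strand) is the founding survival gene. It measured 2.65, 3.10, 2.75, 3.25 and 2.41 FPKM in the WT ovaries and 3.39, 2.98, 2.67 and 2.85 FPKM in the ERβKO ovaries. The ranges overlapped, with WT replicates 1 and 5 below all ERβKO ovaries and ERβKO replicate 1 above all WT ovaries. Between genotypes the log2 fold change was 0.03 (95% interval -0.20 to 0.26), with an adjusted p of 0.900 by edgeR and 0.94 by DESeq2. The authors, who used DESeq2, place Bcl2 among the genes bound by ERβ, here in intron 1, and changed in ERβKO ovaries. No such change of Bcl2 was found here.

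Both effector genes had lower means in ERβKO ovaries, and both overlapped between the genotypes. Bak1 (ENSMUSG00000057789, chr17:27019810-27029009, minus strand) encodes Bak, which resides in the mitochondrial membrane. Its levels were 20.9, 18.5, 18.2, 16.8 and 23.5 FPKM in the WT ovaries and 15.1, 15.4, 16.9 and 16.9 FPKM in the ERβKO ovaries. Only WT replicate 4 fell within the ERβKO range, and the other 4 WT ovaries lay above all ERβKO ovaries. The log2 fold change was -0.31 (standard error 0.105, 95% interval -0.541 to -0.0755), or 0.808-fold, with an adjusted p of 0.146 by edgeR's quasi-likelihood test and 0.0929 by DESeq2. The unadjusted p was under 0.05 in 19 of 19 alternative fits. Exons of Ggnbp1 on the opposite strand cover 25.5% of the exon bases of Bak1, and the sources used here do not say if strand was used in counting. Ggnbp1 itself had a log2 fold change of 0.11 (adjusted p = 0.733 by edgeR) at 169 to 321 fragments, fewer than the 751 to 1072 of Bak1.

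Bax (ENSMUSG00000003873, chr7:45461695-45466898, minus strand) encodes the effector that moves from the cytosol to the mitochondrion. Its levels were 36.3, 28.6, 25.6, 26.0 and 33.6 FPKM in the WT ovaries and 27.3, 24.0, 27.7 and 26.9 FPKM in the ERβKO ovaries. WT replicates 1, 2 and 5 lay above all ERβKO ovaries, and WT replicates 3 and 4 lay among them. The log2 fold change was -0.21 (standard error 0.127, 95% interval -0.49 to 0.072), and the adjusted p was 0.391 by edgeR. Exons of Gm45808 on the same strand cover 12.2% of the exon bases of Bax. WT replicates 1 and 5, the highest for Bax, were also the highest for Bak1.

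Of the BH3-only genes, Pmaip1 had the largest log2 fold change of all members, at the lowest level. Pmaip1 (ENSMUSG00000024521, on chromosome 18) encodes Noxa, which binds mainly Mcl1 and promotes its breakdown. Its levels were 0.43, 0.53, 0.35, 0.38 and 0.51 FPKM in the WT ovaries and 0.67, 0.71, 0.65 and 0.80 FPKM in the ERβKO ovaries. The lowest ERβKO ovary exceeded the highest WT ovary. These levels rest on 18 to 48 fragments per library, and the log2 fold change of 0.63 had a standard error of 0.199 and a 95% interval of 0.192 to 1.07. Its adjusted p was 0.122 by edgeR and 0.107 by DESeq2, and the unadjusted p was under 0.05 in the 17 alternative fits that tested the gene.

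Bad and Bid, which are set off by loss of growth factor signals and by caspase cleavage, respectively, had slightly higher means in ERβKO ovaries. Bad (ENSMUSG00000024959, chr19:6941861-6951898, plus strand) measured 12.7, 16.2, 14.6, 15.4 and 12.7 FPKM in the WT ovaries and 17.1, 15.3, 18.5 and 17.0 FPKM in the ERβKO ovaries. Of the ERβKO ovaries, 3 were above all WT ovaries. The log2 fold change was 0.17 (95% interval -0.043 to 0.379), with an adjusted p of 0.359 by edgeR. Exons of Gpr137 on the opposite strand cover 20.5% of the exon bases of Bad, and Gpr137 had a log2 fold change of 0.25 (adjusted p = 0.163). Bid (ENSMUSG00000004446, chr6:120891930-120916853, minus strand) ranged from 3.31 to 5.99 FPKM in WT and from 4.45 to 5.74 FPKM in ERβKO ovaries, with a log2 fold change of 0.06 and an adjusted p of 0.873. Exons of Bcl2l13 on the opposite strand cover 17.7% of its exon bases, and Bcl2l13 had a log2 fold change of -0.14 (adjusted p = 0.26).

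Bcl2l11 and Bbc3, whose promoter stretches with a FOXO element are printed above, did not separate the genotypes. Bcl2l11 (ENSMUSG00000027381, chr2:128126038-128162547, plus strand) encodes Bim, which binds all survival proteins of the family. It measured 4.99, 4.79, 4.63, 4.82 and 4.77 FPKM in the WT ovaries and 4.55, 5.56, 5.51 and 3.46 FPKM in the ERβKO ovaries. The WT ovaries were nearly equal (coefficient of variation 2.68%) and lay within the wider ERβKO range (20.7%). The log2 fold change was -0.03 (95% interval -0.291 to 0.231), with an adjusted p of 0.915 by edgeR. Bbc3 (ENSMUSG00000002083, chr7:16309616-16318205, plus strand) encodes Puma, a mediator of death after p53 activation. It ranged from 0.75 to 1.09 FPKM in WT and from 0.50 to 0.93 FPKM in ERβKO ovaries, on 21 to 45 fragments per library. Its log2 fold change was -0.14 (95% interval -0.585 to 0.302), with an adjusted p of 0.739 by edgeR, and the interval reaches past the 0.4 of the criteria.

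Bcl2 and Bcl2l1 were set against Bax or Bak1 by ratios of FPKM within an ovary, with no test. Mcl1, the most abundant survival gene, was in no ratio, so these do not give the balance of all survival to effector transcripts. The ratio of Bcl2l1 to Bax was 0.545, 0.760, 0.609, 0.702 and 0.595 in the WT ovaries and 0.811, 0.993, 0.849 and 0.888 in the ERβKO ovaries. Every ovary of both genotypes was below 1, and the genotypes did not overlap, with the ERβKO ovaries higher. The means were 0.642 ± 0.0867 and 0.885 ± 0.0782, a log2 difference of 0.469, which was 0.413 to 0.532 when 1 ovary was left out. The ratio of Bcl2l1 to Bak1, added after the data were seen, was 0.984 ± 0.144 in WT and 1.45 ± 0.0697 in ERβKO ovaries. It was above 1 in 2 of 5 WT and in 4 of 4 ERβKO ovaries, without overlap. Bcl2l1 alone did not overlap either, and both effector genes had lower means in ERβKO. Neither ratio of Bcl2l1 is therefore a separate result, and the share of other gene pairs without overlap was not computed. The ratio of Bcl2 to Bax overlapped, at 0.0971 ± 0.0237 and 0.113 ± 0.0138.

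**Figure D3:**
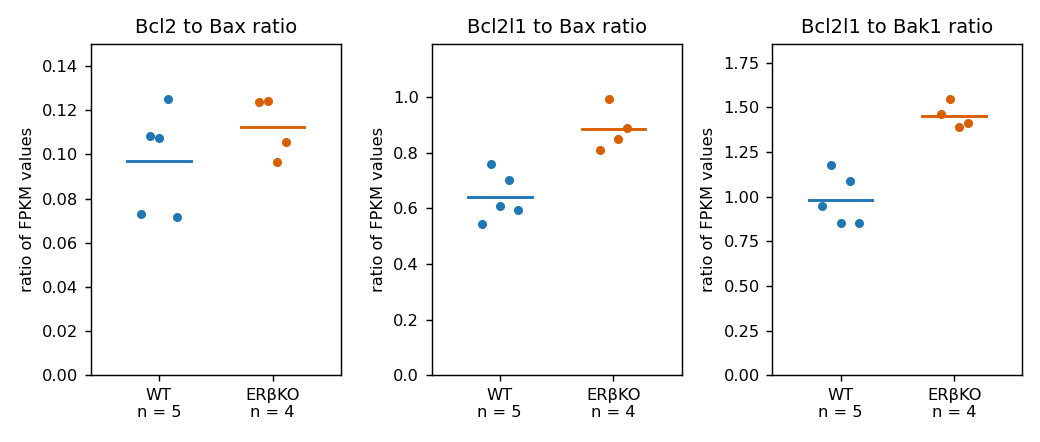
Ratios of FPKM values within each ovary for Bcl2 to Bax, Bcl2l1 to Bax and Bcl2l1 to Bak1, with a point per ovary, a bar at the mean and axes that start at 0. The genotypes overlap for Bcl2 to Bax. They do not overlap for the ratios of Bcl2l1, which alone does not overlap either.

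Summed by role, the 3 survival genes came to 73.3 ± 2.97 FPKM in the WT and 74.2 ± 1.65 FPKM in the ERβKO ovaries. Mcl1 makes up most of this sum, and its lower values and the higher values of Bcl2l1 nearly cancel in it. The 2 effectors came to 49.6 ± 7.08 and 42.6 ± 2.31 FPKM, and the 5 BH3-only genes to 25.3 ± 2.18 and 28.2 ± 1.67 FPKM. The ranges of all 3 sums overlapped between the genotypes. No ovary was the highest or the lowest for most of the members. ERβKO replicate 4 had the lowest value of Mcl1, Bcl2l11 and Bbc3 and the highest of Bcl2l1 and Pmaip1, and WT replicate 3 had the lowest value of Bcl2l1, Pmaip1 and Bid.

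**Figure D4:**
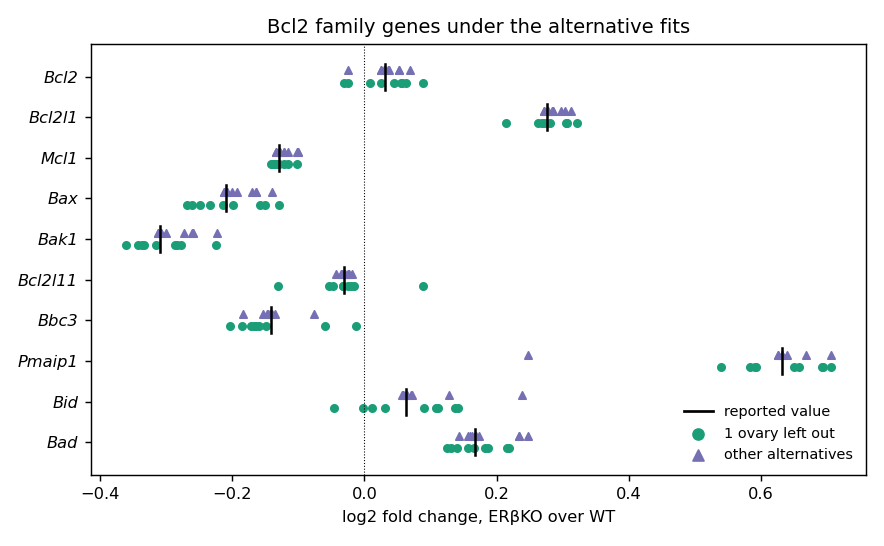
Log2 fold change of each member, ERβKO over WT, in the reported fit (line), with 1 ovary left out (circles) and under the other alternative fits (triangles). Bcl2, Bcl2l11 and Bid cross 0, and the lone triangle of Pmaip1 near 0.25 is the fit on log2(FPKM + 1), which compresses low levels.

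Around the family, 81 other genes of the apoptosis pathway were read in 5 lists. Of these 77 were tested, and Bcl2a1a, Bcl2a1b, Fasl and Tnf had too few counted fragments to pass the filter. By FPKM, Bcl2a1b was not near absent, at 5.28 ± 1.53 in WT and 5.12 ± 1.68 in ERβKO ovaries. A single gene met the criteria, Sesn2, a p53 target that restrains mTORC1 under stress. Its levels were 3.52, 3.58, 3.47, 3.82 and 3.72 FPKM in the WT ovaries and 4.72, 5.95, 6.46 and 5.14 FPKM in the ERβKO ovaries. It rose by 0.60 on the log2 scale (standard error 0.107, adjusted p = 0.0221 by edgeR), without overlap between the genotypes. It stayed past the criteria in 12 of the 19 alternative fits. The adjusted p was 0.0632 without WT replicate 1, 0.0509 without WT replicate 5, 0.0899 without ERβKO replicate 2 and 0.0545 without ERβKO replicate 4. At an unadjusted p under 0.05 there were 15 of 77 genes (19.5%), 6 higher and 9 lower in ERβKO, close to the 19.8% of all genes. DESeq2 also called Sesn2 alone.

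Among the 13 tested genes of the other Bcl2 family list, Bok, a further effector, went from 7.82 ± 0.667 to 10.1 ± 0.576 FPKM without overlap (log2 fold change 0.35, adjusted p = 0.131 by edgeR). Bnip3, a BH3-related gene of mitophagy, went from 43.9 ± 10.1 to 32.8 ± 4.45 FPKM (log2 fold change -0.48, adjusted p = 0.164). With 1 ovary left out, its adjusted p by edgeR was 0.0375 without WT replicate 2 and 0.178 to 0.352 otherwise. None of the 13 met the criteria, and 1 was higher and 2 were lower at an unadjusted p under 0.05. Of the 21 genes of the mitochondrial pathway and the caspases none met the criteria, and 1 was higher and 4 were lower at that threshold. Aifm1, which encodes the apoptosis-inducing factor of the mitochondrial intermembrane space, went from 29.1 ± 3.12 to 22.1 ± 2.59 FPKM (log2 fold change -0.36, adjusted p = 0.0607). Its adjusted p by edgeR was 0.0307 without WT replicate 4 and 0.0429 without WT replicate 2. Leaving out any other ovary gave 0.086 to 0.169. DESeq2 gave Aifm1 an adjusted p of 0.00941, with a log2 fold change of -0.37, short of the 0.4 of the criteria. Vdac1, the channel of the outer membrane, had a log2 fold change of -0.20 (adjusted p = 0.115 by edgeR and 0.0338 by DESeq2).

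None of the 10 tested genes of the death receptor pathway had an unadjusted p under 0.05 by edgeR or DESeq2 over all 9 ovaries. Its smallest p values belonged to the ligand Tnfsf10 (log2 fold change 0.30, adjusted p = 0.356, and 0.41 with an adjusted p of 0.128 and an unadjusted p of 0.0223 by edgeR without WT replicate 2) and its receptor Tnfrsf10b (-0.15, adjusted p = 0.507). Of the 18 regulators of the family, 2 were higher and 1 was lower at an unadjusted p under 0.05. The co-chaperones Bag1 and Bag3 had log2 fold changes of -0.17 (adjusted p = 0.188) and 0.15 (adjusted p = 0.236), and Bag3 did not overlap between the genotypes. Of the 15 p53 targets, 2 were higher and 2 were lower at that threshold. Next to Sesn2 stood Tigar, a regulator of glycolysis, at 3.26 ± 0.393 and 4.22 ± 0.0866 FPKM without overlap (log2 fold change 0.33, adjusted p = 0.121 by edgeR and 0.0449 by DESeq2). The medians of the 5 lists were between -0.052 and 0.035 on the log2 scale, beside 0.00 over all tested genes.

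**Figure D5:**
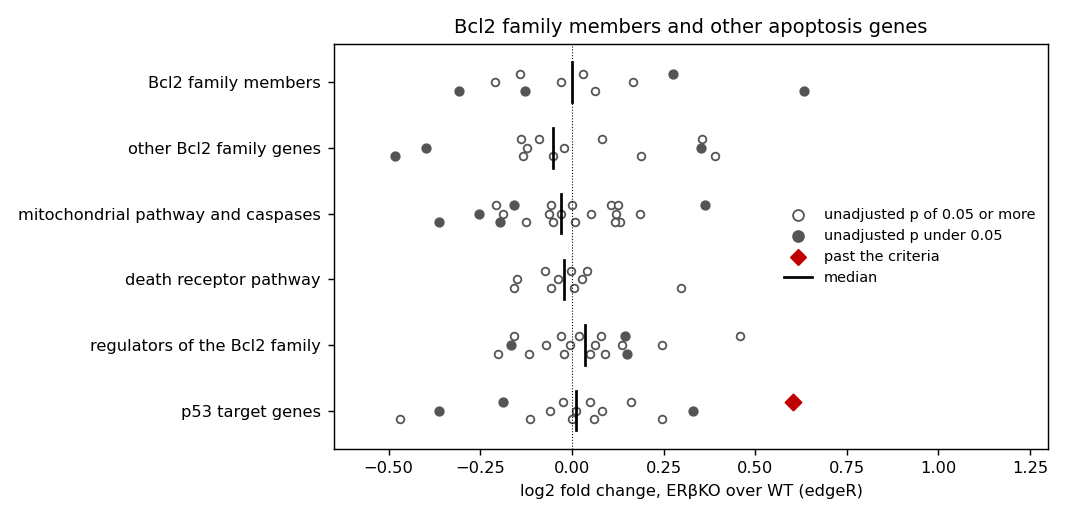
Log2 fold change, ERβKO over WT, of the 10 members and of the 77 other apoptosis genes by list, with a point per gene and a line at the median. Filled points have an unadjusted p under 0.05, and the diamond is Sesn2, the gene past the criteria. Every median lies close to 0.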

How the data were processed

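The ovary libraries were made from polyadenylated RNA with a stranded kit, sequenced as read pairs, and mapped by the authors with STAR to GRCm38. The deposited counts are raw fragments per gene from featureCounts, not normalized. The deposited FPKM, which the authors obtained from StringTie, are scaled to gene length and depth. The deposited TPM and coverage values, also from StringTie, were read but used for no result. The submitters' processing notes also list Trim Galore, CASAVA and bcl2fastq 2.20.0.422. Versions of the other tools are not given in the sources used here.

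Counts were filtered with filterByExpr, normalized by TMM and fitted with genotype as the factor in edgeR 4.0.16 (R 4.3.3), and tested with its quasi-likelihood test and Benjamini-Hochberg adjustment over all 16722 genes. All adjusted p values are from edgeR unless another tool is named. The common biological coefficient of variation was 0.179. Nothing in the labels says how the mice relate to each other, so p values measure the spread between these ovaries. The standard error was taken from the log2 fold change and the F statistic. Chi-square comparisons of the counts within each genotype found no library deposited as a repeat of another. Pairs across the genotypes were not compared. Alternatives were DESeq2 1.42.0, its size factors or upper-quartile factors in edgeR, no filter or a minimum of 10 counts per library, a block for the replicate number, leaving out 1 library at a time, library numbers below 200, and limma 3.58.1 on log-transformed FPKM (pseudocount 1 or 0.1). Library numbers below 200 leave out WT replicates 4 and 5 (201 and 202) and no ERβKO library, and what the numbers stand for is not given. The scripts were tested on simulated counts.

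The members, the pathway and marker lists and the tests were chosen with earlier results of these data known. Genes named are the 10 members and, of each pathway list, those past the criteria and those with the smallest p up to 2 in all. Also named are Esr2, pathway genes that were not tested and genes whose exons overlap a member. Overlapping exons were taken from GENCODE vM21 and promoters from RefSeq. Counts of members without WT replicate 2 were added after the data were seen. Protein sequences were not used here.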

Additional observations from a re-analysis of the deposited data

Results flagged for a closer look

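Single ovaries stood apart, relative to the range of their genotype, for 3 of the 52 groups of values checked. Chance flags about 1 in 20 groups. The flag sets a gap against the range, so it can mark a small gap in a tight group. Mcl1 was at 53.5 FPKM in WT replicate 1, while the other WT ovaries lay between 50.4 and 51.2 FPKM. Bag3 was at 21.7 FPKM in ERβKO replicate 3, while the other ERβKO ovaries lay between 19.85 and 19.91 FPKM. Tigar was at 4.09 FPKM in ERβKO replicate 1, while the others lay between 4.26 and 4.27 FPKM.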

How the results depend on the processing

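The count of 0 members past the criteria was the same in every alternative fit. The log2 fold changes of Bcl2l1, Mcl1, Bax, Bak1, Bbc3, Pmaip1 and Bad kept their direction in every alternative that tested them. That of Bcl2 turned to -0.024 with the replicate block, -0.025 without WT replicate 5 and -0.031 without ERβKO replicate 1, that of Bcl2l11 to 0.089 without ERβKO replicate 4, and that of Bid to -0.046 without WT replicate 3 and -0.0018 without ERβKO replicate 1. With 1 ovary left out these 3 ranged from -0.031 to 0.089, from -0.131 to 0.089 and from -0.046 to 0.142. The 287 genes past the criteria became 803 with DESeq2, 155 with the replicate block, 51 with library numbers below 200, 39 with limma on log2(FPKM + 1) and no filter, and 60 to 919 with 1 ovary left out, the highest without WT replicate 2 and the lowest without ERβKO replicate 2. The count of 1 pathway gene became 0 with the replicate block, with library numbers below 200 and with limma and no filter, and 0 to 2 with 1 ovary left out. The cause was not tested. Ovaries with the same replicate number in both genotypes had correlations of deviations between -0.043 and 0.13. Other pairs had -0.297 to 0.205, so no pairing by number was seen, but so few values cannot exclude it. With the block 3 members had an unadjusted p under 0.05 by edgeR. Pmaip1 and Bbc3 rest on the fewest fragments of the members, 18 to 48 and 21 to 45 per library.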
